A study of Mus musculus with 2 samples.

Results

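The genes described here make and sense prostaglandins and leukotrienes. They are the 9 genes Ptgs1, Ptgs2, Ptges, Hpgds, Ptger2, Ptger4, Alox5, Alox5ap and Ltb4r1, chosen by symbol among the 32285 genes counted, and all 9 were found. Single-cell RNA was sequenced from 2 mouse tumours, each grown from KPC cells, a line from pancreatic tumours of genetically engineered mice with a Pdx1-driven Cre. The cells had been injected into the pancreas after lentiviral delivery of a hairpin and drug selection, with a control hairpin in the group named KPC-shV and one against Zeb1, a transcription factor gene, in the group named KPC-shZEB1. Each group was 1 library, and the methods mention several selected lines for each hairpin without saying which was sequenced. According to the study's results the mice received gemcitabine, which the labels do not mention, and the labels give no strain, age or sex. The hairpins were in the injected cells, and every other cell belonged to the host. Hairpin, tumour, tissue digestion and library are 1 and the same split here and cannot be told apart, so no test or p-value is given.

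After filtering, 11398 cells with 101201508 unique molecular identifiers (UMIs, each standing for 1 captured RNA molecule) remained in the KPC-shV-labelled library and 12104 cells with 118943000 UMIs in the KPC-shZEB1-labelled library, and 46 barcode strings occurred in both. Zeb1 itself was at 168 and 187 counts-per-million (CPM) in tumour-like cells, so its RNA count was not lower in the library labelled as its knockdown. The ratio of 1.12 there was near those of T-like (1.10) and fibroblast-like cells (1.07), which are host cells. The study itself reports a knockdown efficiency for Zeb1 in KPC cells and Zeb1 staining of tumours, which these counts do not assess. No direction below is tied to a lower level of Zeb1. Cells were sorted into classes by markers and each class is called by its name with -like. The marker counts that follow use the same lists that named the classes, so they describe the classes and are not a separate check. All 8 granulocyte markers, all 6 T, NK and B markers and all 7 endothelial markers were highest in their own class in both libraries. So were 8 of 10 monocyte-macrophage and 6 of 7 fibroblast markers in both, 6 and 7 of 7 tumour markers, and 14 and 17 of 20 dendritic markers. The dendritic markers summed to 3858 and 3814 CPM in dendritic-like cells, below the 5512 and 4213 CPM in the 16 and 36 acinar-like cells. A level is the CPM of a gene among all UMIs of a class, 2 values joined by "and" stand for the KPC-shV-labelled and then the KPC-shZEB1-labelled library, and a ratio divides the second by the first. Intervals in parentheses are 95% intervals that cover counting error only. Granulocyte-like cells numbered 6870 and 4570, monocyte-macrophage-like cells 1705 and 2581, tumour-like cells 1437 and 1388, T-like cells 406 and 1275, B-like cells 289 and 1226, fibroblast-like cells 361 and 378, dendritic-like cells 114 and 347, endothelial-like cells 124 and 82 and NK-like cells 53 and 172.

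Prostaglandins and leukotrienes are lipid mediators made from arachidonic acid that phospholipases free from membranes. The cyclooxygenases Ptgs1, which many cells carry at rest, and Ptgs2, which inflammatory signals induce, make the common prostaglandin precursor. Ptges turns it into prostaglandin E2 and Hpgds into prostaglandin D2, and Ptger2 and Ptger4 are receptors of prostaglandin E2. Alox5, helped by the membrane protein Alox5ap, starts leukotriene synthesis, and Ltb4r1 is the high-affinity receptor of leukotriene B4, a strong attractant of neutrophils. In tumours, prostaglandin E2 is known as a suppressor of T, NK and dendritic cells. The genes lie on 6 chromosomes in the GRCm38 build: Ptgs1 (ENSMUSG00000047250) on chromosome 2 from 36230426 to 36252272, plus strand, Ptges (ENSMUSG00000050737) on chromosome 2 from 30889471 to 30929863, minus strand, Ptgs2 (ENSMUSG00000032487) on chromosome 1 from 150100031 to 150108227, plus strand and Alox5ap (ENSMUSG00000060063) on chromosome 5 from 149264767 to 149288153, plus strand. Alox5 (ENSMUSG00000025701) on chromosome 6 from 116410077 to 116461178, minus strand, and Hpgds (ENSMUSG00000029919) on chromosome 6 from 65117293 to 65144908, minus strand, share a chromosome. Ptger2 (ENSMUSG00000037759) on chromosome 14 from 44988195 to 45003820, plus strand, lies on that of Ltb4r1 (ENSMUSG00000046908) on chromosome 14 from 55765962 to 55768494, plus strand. Ptger4 (ENSMUSG00000039942) on chromosome 15 from 5206661 to 5244187, minus strand, is the last. None of the 9 overlapped another gene on its own strand. Gm17173, Ttc33 and Gm19719 lie antisense to Ptger2, Ptger4 and Alox5ap, and Ltb4r2, the low-affinity receptor of the same leukotriene, lies 824 bases from Ltb4r1.

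RefSeq promoter sequence (GRCm38.p6, from 250 bases before to 50 after the annotated start) was at hand for 8 of the 9 genes, Alox5ap being the exception. The 250 bases upstream of 4 of them are printed 5′ to 3′, with capitals for matches, on either strand, to CACCTG, the E-box that Zeb1 binds, to ACGTCA, the core of a cyclic AMP response element, to the TATA box TATAAA or to the GC box GGGCGG. Ptgs1 and Alox5 are shown because their levels went together over granulocyte-like clusters, Ptgs2 because it had the most UMIs, and Hpgds because it and Ptgs2 held an E-box. They lie at chr2:36230176-36230425 (Ptgs1, plus strand), chr6:116461179-116461428 (Alox5, minus strand), chr1:150099781-150100030 (Ptgs2, plus strand) and chr6:65144731-65144980 (Hpgds, minus strand, where RefSeq places the start inside the gene span given above).
Ptgs1: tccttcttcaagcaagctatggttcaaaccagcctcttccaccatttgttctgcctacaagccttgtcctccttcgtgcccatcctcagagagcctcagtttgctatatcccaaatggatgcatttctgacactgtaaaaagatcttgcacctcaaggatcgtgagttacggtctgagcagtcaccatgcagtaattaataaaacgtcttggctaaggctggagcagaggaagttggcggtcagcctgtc
Alox5: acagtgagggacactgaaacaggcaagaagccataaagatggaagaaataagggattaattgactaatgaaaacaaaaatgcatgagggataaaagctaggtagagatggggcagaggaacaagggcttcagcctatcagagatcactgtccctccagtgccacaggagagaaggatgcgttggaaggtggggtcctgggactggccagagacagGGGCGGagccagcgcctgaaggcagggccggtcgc
Ptgs2: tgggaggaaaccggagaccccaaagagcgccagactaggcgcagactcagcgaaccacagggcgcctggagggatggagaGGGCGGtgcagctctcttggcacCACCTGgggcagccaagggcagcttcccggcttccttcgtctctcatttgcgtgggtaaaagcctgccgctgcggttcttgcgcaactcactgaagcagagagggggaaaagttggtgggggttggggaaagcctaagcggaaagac
Hpgds: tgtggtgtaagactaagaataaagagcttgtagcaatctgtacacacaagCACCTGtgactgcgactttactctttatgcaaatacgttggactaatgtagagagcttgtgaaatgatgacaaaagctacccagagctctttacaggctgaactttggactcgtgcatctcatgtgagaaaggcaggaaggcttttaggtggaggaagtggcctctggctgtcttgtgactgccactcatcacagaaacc
The E-box stood 147 bases upstream of the start in Ptgs2 and 200 bases upstream in Hpgds, 2 of 8 promoters, and it was present in 20.2% of all 32851 promoters of the same length. The response element core occurred in Ptgs2 alone, 13 bases past the annotated start, in the following stretch (chr1:150100031-150100060), against 7.51% of all promoters.
Ptgs2 site: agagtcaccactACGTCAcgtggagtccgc
GC boxes were found in 5 of 8 (Alox5, Ltb4r1, Ptger4, Ptges and Ptgs2) against 35.7% of all promoters, and the TATA box letters in 0 of 8 against 13.6%. Ptgs1 and Alox5 shared none of the 4 motifs in this window.

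Ptgs2, the inducible cyclooxygenase, was measured above all in granulocyte-like cells, at 2529 (2509–2550.1) and 2744 (2716–2771) CPM. Monocyte-macrophage-like cells followed with 1051 and 949 CPM, then fibroblast-like cells with 667 and 684 CPM, dendritic-like cells with 454 and 499 CPM and tumour-like cells with 301 and 220.3 CPM. This order was the same in both libraries, and no interval in it touched that of its neighbour. Below it, the intervals of T-like and B-like cells overlapped in both libraries. After each cell was thinned to 1000 UMIs, 73.1% and 77.4% of granulocyte-like cells held a Ptgs2 UMI, and before thinning 87.3% (86.5–88.1) and 90.0% (89.1–90.9) did. The same share was 31.8% (26.5–37.5) and 35.2% (32.5–37.9) in B-like cells, which should lack the gene, and 10.0% and 11.1% once thinned, with median depths of 3147 and 2887 UMIs in granulocyte-like and 3732 and 3417.5 UMIs in B-like cells. As granulocyte RNA was present in every class, the level of a gene that would come with it was computed from 8 granulocyte markers. For Ptgs2 this was 80.5 and 72.9 CPM in B-like cells, where 99.1 and 126 CPM were measured, and 104 and 82.6 CPM in T-like cells, where 121 and 121 CPM were. In fibroblast-like cells it was 105 and 76.9 CPM, a small part of the level measured. The T-like class was not uniform. Ptgs2 was at 442 (274–676) and 950 (756–1177) CPM in gamma-delta T-like cells, of which there were only 9 and 16. It was at 104 and 107 CPM in CD4 T-like, 96.8 and 104 CPM in CD8 T-like and 128 and 132 CPM in regulatory T-like cells. The ILC2-like cells, 7 and 19, held 897 (628–1242) and 449 (324–607) CPM. These rest on 36 and 42 UMIs from only 3 and 10 cells, and the intervals do not cover the difference between cells.

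Ptgs1, the cyclooxygenase that many resting cells carry, had another order. Monocyte-macrophage-like cells came first with 96.7 (92.8–101) and 88.9 (86.0–91.9) CPM. Fibroblast-like cells held 55.4 and 39.6 CPM, tumour-like cells 43.8 and 41.2 CPM, granulocyte-like cells 36.4 and 56.0 CPM and endothelial-like cells 31.7 and 32.0 CPM. The lymphoid and dendritic-like classes all stayed under 13 CPM, and RNA from monocyte-macrophage-like cells would bring 3.99 and 7.98 CPM where 3.45 and 10.3 CPM were measured in B-like cells. Granulocyte-like cells were below fibroblast-like cells in the KPC-shV-labelled library and above them in the other, and neither pair of intervals overlapped. Tumour-like, fibroblast-like and endothelial-like intervals overlapped in the KPC-shZEB1-labelled library. The terminal enzymes were narrower in their distribution. Ptges was highest in fibroblast-like cells at 61.8 (57.2–66.6) and 62.4 (57.8–67.4) CPM, and granulocyte-like cells followed at 16.2 and 13.9 CPM, ahead of monocyte-macrophage-like and tumour-like cells, whose intervals overlapped. Hpgds was highest in monocyte-macrophage-like cells at 60.3 (57.2–63.5) and 61.0 (58.6–63.5) CPM, and no other of the 9 classes passed 16 CPM. Fibroblast-like cells gave 41.0% and 40.6% of all Ptges UMIs and monocyte-macrophage-like cells 76.2% and 82.7% of all Hpgds UMIs.

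**Figure D1:**
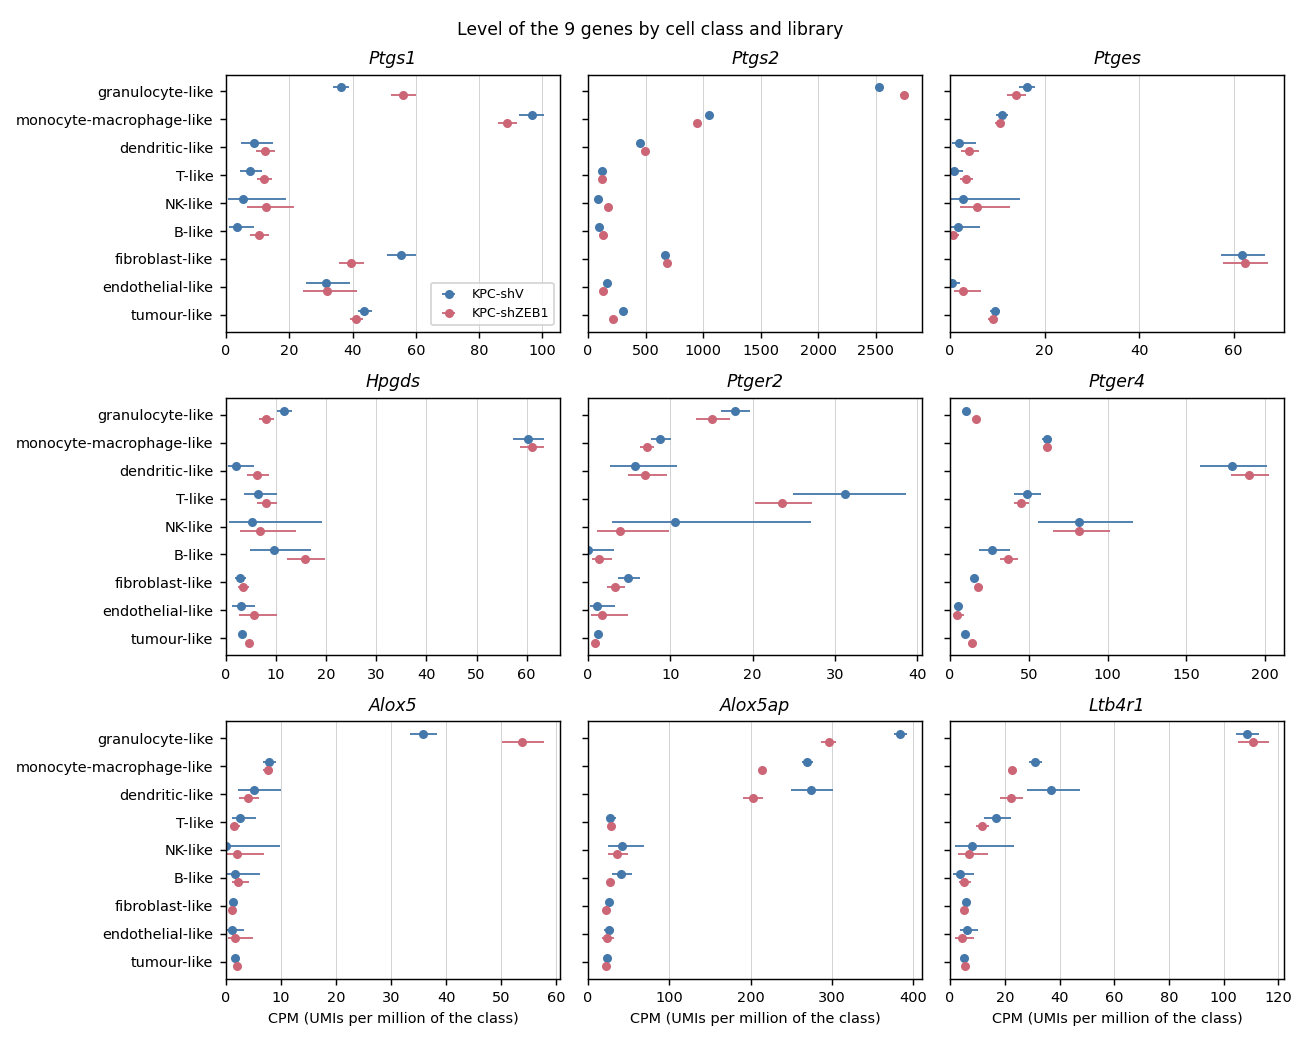
Levels of the 9 genes in CPM (horizontal axes, each from 0) in 9 cell classes (vertical axis) of the KPC-shV-labelled (blue) and KPC-shZEB1-labelled (red) libraries, with bars for 95% counting intervals. Granulocyte-like cells lead for Ptgs2, Alox5, Alox5ap and Ltb4r1, monocyte-macrophage-like cells for Ptgs1 and Hpgds, fibroblast-like cells for Ptges, T-like cells for Ptger2 and dendritic-like cells for Ptger4.

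The prostaglandin E2 receptors had their highest levels in other classes than the cyclooxygenases, though granulocyte-like and monocyte-macrophage-like cells gave many of their UMIs. Granulocyte-like cells gave 50.2% and 26.7% and monocyte-macrophage-like cells 25.7% and 34.9% of Ptger2 UMIs, and monocyte-macrophage-like cells gave 54.6% and 49.0% of Ptger4 UMIs. Ptger4 was highest in dendritic-like cells, at 179 (159–201) and 189.9 (178–202) CPM. NK-like cells held 82.0 and 82.0 CPM, monocyte-macrophage-like cells 61.5 and 61.5 CPM and T-like cells 48.8 and 45.3 CPM, and granulocyte-like cells only 10.1 and 16.5 CPM. NK-like and monocyte-macrophage-like intervals overlapped in the KPC-shV-labelled library but not in the other. Ptger2 was highest in T-like cells at 31.3 (24.9–38.7) and 23.5 (20.2–27.2) CPM, ahead of granulocyte-like cells at 17.9 and 15.1 CPM. In B-like cells Ptger2 had 0 UMIs in the KPC-shV-labelled library, which allows a level of up to 2.59 CPM, and 1.34 CPM in the other. Within the T and NK cells, Ptger2 reached 85.0 (54.5–126) and 81.9 (60.2–109) CPM in a CD4 T-like sub-cluster led by Dgki and Dusp14, of 37 and 82 cells, and 110.3 (55.1–197) and 68.4 (39.8–109.5) CPM in a CD8 T-like one led by Atp2b2, of 9 and 27 cells, and these intervals overlapped. Ptger4 reached 143 (94.0–208) and 108 (84.9–136) CPM in the NK-like sub-cluster led by Klra4 and Klra8, of 33 and 124 cells, and 241 (165–339.9) and 73.6 (42.9–118) CPM in an unnamed T sub-cluster led by Il23r, of 24 and 41 cells. In another unnamed T sub-cluster, led by Tgfa, of 16 and 37 cells, it was at 98.3 (36.1–214) and 165 (107–244) CPM.

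Among the 9 classes with at least 50 cells in each library, Alox5, Alox5ap and Ltb4r1 were all highest in granulocyte-like cells. Alox5, the enzyme that begins leukotriene synthesis, was at 35.8 (33.4–38.3) and 53.9 (50.1–57.9) CPM there, against 7.86 and 7.63 CPM in monocyte-macrophage-like cells, and the 7 remaining classes stayed under 6 CPM. Outside these classes, the few ILC2-like cells (7 and 19) held Alox5 at 49.9 (6.04–180) and 107 (51.3–197) CPM, on 2 and 10 UMIs. Its helper Alox5ap was broader, with 384 (376–392) and 296 (287–305) CPM in granulocyte-like cells, 274 and 202 CPM in dendritic-like cells and 269.8 and 214 CPM in monocyte-macrophage-like cells, and the last 2 had overlapping intervals in both libraries. In tumour-like cells, among the classes with the least, it was at 22.9 and 21.9 CPM, of which granulocyte RNA would bring 13.9 and 7.53 CPM. The receptor Ltb4r1 was at 109 (104–113) and 111 (105–116) CPM in granulocyte-like cells, followed by dendritic-like cells at 36.8 and 22.2 CPM and monocyte-macrophage-like cells at 31.2 and 22.5 CPM, whose intervals overlapped. Among T and NK cells Ltb4r1 stood out in small sub-clusters: it was at 128 (74.5–205) and 95.2 (59.7–144) CPM in the Il23r sub-cluster, at 105 (34.2–246) and 91.5 (39.5–180.4) CPM in a gamma-delta T-like one led by Cd163l1 and Il17a (9 and 16 cells) and at 99.7 (27.2–255) and 171 (97.8–278) CPM in an ILC2-like one led by Il5 (7 and 19 cells). The T-like class as a whole was at 16.8 and 11.6 CPM. The intervals of these 3 sub-clusters overlapped, so no order among them is given.

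**Figure D2:**
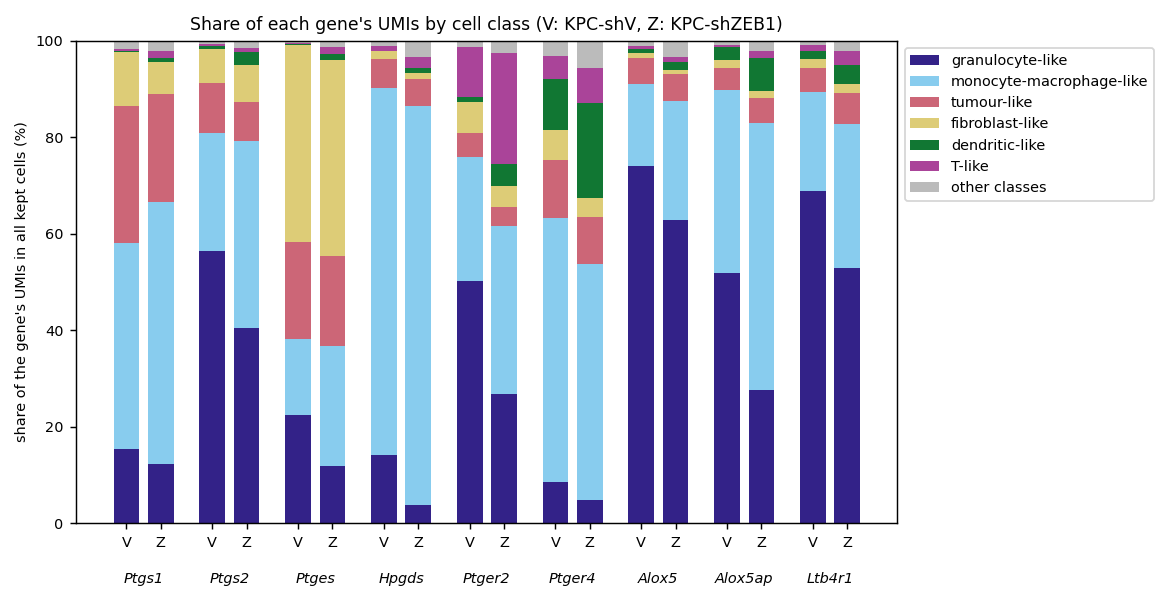
Share of each gene's UMIs (vertical axis, %) that came from each cell class in the KPC-shV-labelled (V) and KPC-shZEB1-labelled (Z) libraries. The granulocyte-like part is the smaller in the KPC-shZEB1-labelled library for all 9 genes, as were granulocyte-like cells themselves.

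The classes differed in size between the tumours, and for several genes the ratio over whole libraries was not that of the class with the highest level. Granulocyte-like cells were 60.3% and 37.8% of cells and gave 56.5% and 40.5% of Ptgs2 UMIs, 74.1% and 62.9% of Alox5 UMIs and 68.8% and 52.9% of Ltb4r1 UMIs. Over all kept cells the level of Ptgs2 was 1011 and 801 CPM, with a ratio of 0.792 (0.785–0.799), although its ratio within granulocyte-like cells was 1.08 (1.07–1.10). Ltb4r1 was at 35.6 and 24.7 CPM over all cells, a ratio of 0.694 (0.661–0.729), against 1.02 (0.957–1.09) within granulocyte-like cells. Ptger4 went the other way with 26.5 and 41.1 CPM, a ratio of 1.55 (1.48–1.63), against 1.06 (0.927–1.21) in dendritic-like and 1.00 (0.936–1.07) in monocyte-macrophage-like cells, which had higher levels than granulocyte-like and tumour-like cells, where its ratios were near the whole-library value (1.64 (1.36–1.98) in granulocyte-like cells). Alox5ap was at 167 and 126 CPM over all cells, with a ratio of 0.755 (0.739–0.772) that was near those of its main classes. At the level of the whole tissue, a smaller share of a cell type and a lower level per cell cannot be told apart.

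In granulocyte-like cells, Ptgs1, Alox5 and Ptger4 were past 1.5-fold higher in the KPC-shZEB1-labelled library and none of the 9 genes was past 1.5-fold lower. Of all 13849 genes with at least 30 UMIs in this class, 24.0% were past the same fold higher and 3.47% lower, so the 3 of 9 members stand against a background of nearly 1 in 4, and the median log2 ratio was 0.03 over the members and 0.28 over all genes. Ptgs1 was at 36.4 (34.0–39.0) and 56.0 (52.1–60.0) CPM, with a ratio of 1.54 (1.39–1.70), and RNA of monocyte-macrophage-like cells, measured by 10 markers as above, would bring 6.62 and 10.4 CPM of that level. Alox5 had a ratio of 1.51 (1.36–1.66) and Ptger4, at 10.1 and 16.5 CPM, one of 1.64 (1.36–1.98). Alox5ap was lower, at 384 and 296 CPM with a ratio of 0.770 (0.742–0.799). Hpgds, low in this class at 11.6 and 7.89 CPM, had a ratio of 0.681 (0.540–0.853). For Ptges (0.859 (0.719–1.02)) and Ltb4r1 (1.02 (0.957–1.09)) the interval held 1.

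The granulocyte-like cells formed clusters that differed in these genes, and the clusters differed in size between the libraries. The cluster led by Tex14 and Siglecf held 9.33% and 30.3% of granulocyte-like cells, that led by Lrg1 and G0s2 32.4% and 37.6%, that led by Il23a and F10 23.1% and 10.8%, that led by Ero1l and Retnlg 23.2% and 9.34% and that led by Rsad2 and Ifit1, which are interferon-induced genes, 10.7% and 5.60%. None of the 9 genes was used to form the clusters. Ptgs1 was at 117 and 106 CPM in the Tex14-Siglecf cluster, against 34.7 and 32.9 CPM in the Lrg1-G0s2 cluster, the largest, and 12.1 and 25.3 CPM in the Ero1l-Retnlg cluster. Alox5 followed the same order at the top, with 90.0 and 86.6 CPM in the Tex14-Siglecf cluster, 44.1 and 45.1 CPM in the Lrg1-G0s2 cluster and 8.61 and 15.7 CPM in the Ero1l-Retnlg cluster. The Tex14-Siglecf cluster gave 32.1% and 61.0% of the Ptgs1 UMIs of granulocyte-like cells and 25.1% and 52.0% of the Alox5 UMIs. Within it the ratios were 0.900 (0.773–1.05) for Ptgs1 and 0.962 (0.811–1.14) for Alox5, both within counting error.

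Siglecf is also a marker of eosinophils, which carry leukotriene enzymes. The 6 eosinophil markers (Epx, Prg2, Ear1, Ear6, Ccr3 and Il5ra) summed to 4.83 and 10.6 CPM in this cluster, 2 of the 6 were at 0 in each library, and none of its cells held 3 of them. In the Il23a-F10 cluster the same sum was 26.4 and 34.4 CPM. Mast cell markers summed to 19.8 and 17.4 CPM, with 1 of 6 at 0.

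**Figure D3:**
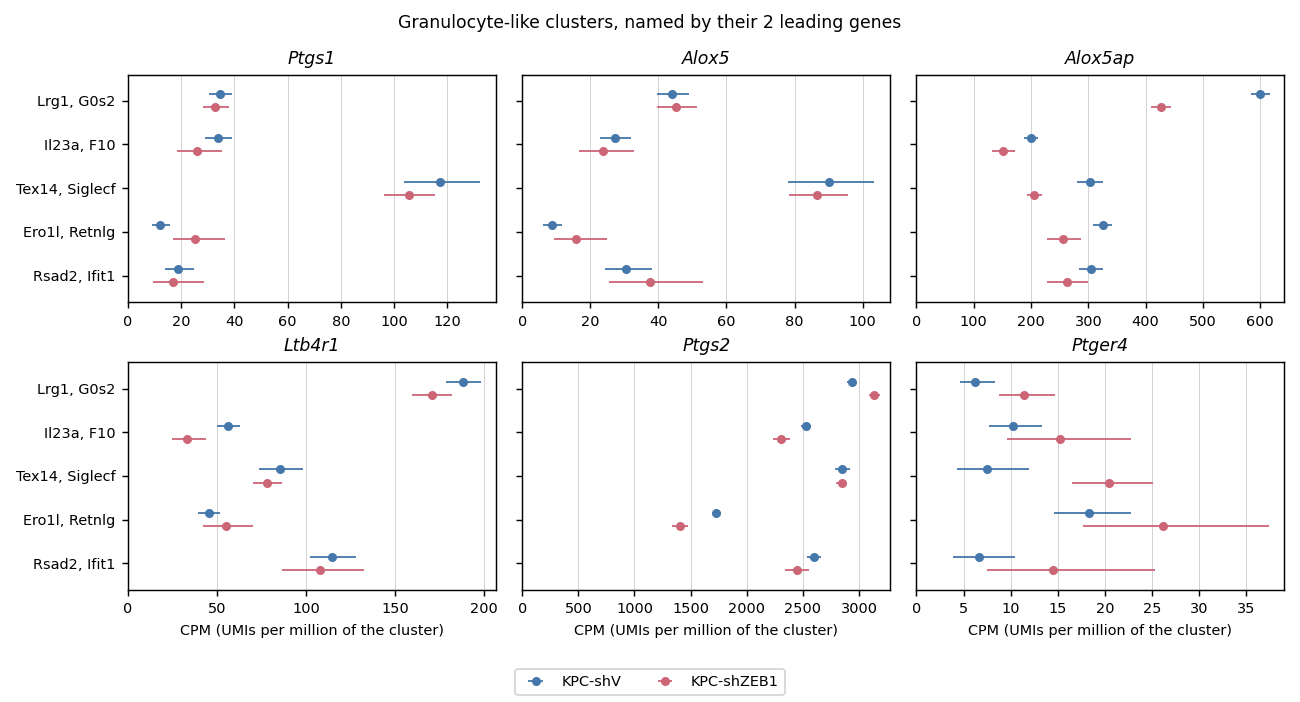
Levels in CPM (horizontal axes) of 6 of the genes in the 5 granulocyte-like clusters with at least 50 cells in each library (vertical axis, 2 leading genes each), blue for the KPC-shV-labelled and red for the KPC-shZEB1-labelled library, with 95% counting intervals. Ptgs1 and Alox5 peak in the Tex14-Siglecf cluster at nearly equal levels in both libraries, while Alox5ap is lower in the KPC-shZEB1-labelled library in all 5.

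The size of the clusters and the level within them were then described apart. The ratio was averaged over the 5 clusters on the log scale with equal weights for both libraries. A second ratio was computed from cluster sizes alone, with each cluster given 1 level for both libraries. With the make-up held, Ptgs1 had a ratio of 1.01 and Alox5 one of 1.09, while single clusters ranged from 0.762 to 2.08 and from 0.876 to 1.82. Cluster sizes alone gave 1.61 and 1.48, about the ratios of the whole class. The held ratio has no interval. Clusters led by Trem1 and Trem3 (5 and 269 cells) and by Eldr and Supv3l1 (84 and 23 cells) were in neither value. The libraries were clustered together without alignment, so differences between them can also set which cluster a cell joined. Whether cluster sizes account for the class ratios of Ptgs1 and Alox5 was therefore not tested. Leaving out the Tex14-Siglecf cluster was chosen after the data were seen. It had the most Ptgs1 and Alox5 and a larger share in the KPC-shZEB1-labelled library, so lower ratios of both without it were fixed in advance. The ratios of the remaining granulocyte-like cells were 1.18 (1.02–1.35) for Ptgs1, 1.28 (1.13–1.46) for Alox5 and 1.41 (1.13–1.76) for Ptger4. Of these 3 genes 0 passed 1.5-fold there, where 17.7% of all genes were past it higher and 3.31% lower. Alox5ap behaved in the opposite manner, with 0.738 when the make-up was held and 1.03 from cluster sizes alone. It was lower in each of the 5 clusters, from 0.679 in the Tex14-Siglecf cluster (303 and 206 CPM) to 0.860 in the Rsad2-Ifit1 cluster (305 and 262 CPM), and in the Lrg1-G0s2 cluster, where it was highest, it was at 600.4 and 426 CPM. Ptgs2 was at 2933 and 3137 CPM in the Lrg1-G0s2 cluster and 2851 and 2844 CPM in the Tex14-Siglecf cluster, but at 1728 and 1406 CPM in the Ero1l-Retnlg cluster, and its small excess in the class turned to 0.968 with the make-up held. Ltb4r1 was highest in the Lrg1-G0s2 cluster at 188 and 171 CPM and had a held ratio of 0.879. The Il23a-F10 cluster had the most Ptges, 30.9 and 41.7 CPM, and the most Ptger2, 39.4 and 26.4 CPM. Hpgds and Ptger2 turned from below 1 in the class to 1.21 and 1.22 with the make-up held, at levels under 40 CPM in every cluster.

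**Figure D4:**
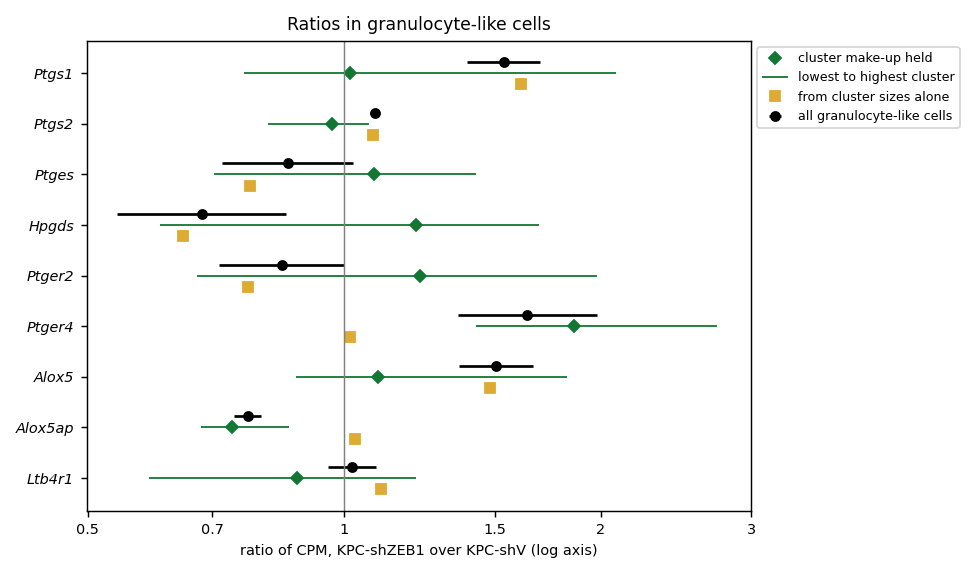
Ratio of CPM between the libraries in granulocyte-like cells (horizontal log axis, KPC-shZEB1-labelled over KPC-shV-labelled) for the 9 genes. Black points are the whole class with 95% counting intervals, green diamonds the value with cluster make-up held with lines from the lowest to the highest cluster, and yellow squares the value from cluster sizes alone: Ptgs1 and Alox5 lie near 1.5 for the class and from cluster sizes alone but near 1 with the make-up held, whereas Alox5ap and Ptger4 depart from 1 with the make-up held.

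Ptger4 was higher in each of the 5 granulocyte-like clusters, with ratios from 1.43 to 2.74 and 1.86 with the make-up held. It had only 230 and 232 UMIs in the class. The 10 monocyte-macrophage markers, none of them at 0, summed to 550.4 and 1190.3 CPM in granulocyte-like cells, and the Ptger4 that would come with that RNA was 4.21 and 7.20 CPM of the 10.1 and 16.5 CPM measured. Tumour-like cells had a similar difference, with 9.28 and 13.9 CPM and a ratio of 1.495 (1.30–1.73), just under the fold, where the marker sum was 322 and 731 CPM and the Ptger4 that would come with it 2.46 and 4.42 CPM. The part of this RNA in either ratio was not tested beyond these values.

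In monocyte-macrophage-like cells none of the 9 genes was past 1.5-fold in either direction, where 10.3% of all genes were past it higher and 2.29% lower. The ratios whose interval excluded 1 were 0.721 (0.653–0.796) for Ltb4r1, 0.792 (0.767–0.819) for Alox5ap, 0.810 (0.675–0.974) for Ptger2, 0.903 (0.888–0.917) for Ptgs2 and 0.920 (0.872–0.970) for Ptgs1, all lower in the KPC-shZEB1-labelled library. Hpgds was at 60.3 and 61.0 CPM (ratio 1.01 (0.948–1.08)) and Ptger4 at 61.5 and 61.5 CPM (ratio 1.00 (0.936–1.07)), and both intervals held 1. The genes peaked in different clusters. The cluster led by Chil3, Pid1 and Ccr2, of which Chil3 and Ccr2 are genes of recruited monocytes, had the most Alox5ap at 524 and 394 CPM. It also had the most Ltb4r1 at 82.8 and 62.7 CPM and Ptgs2 at 1568 and 1366 CPM, and little Hpgds at 7.94 and 10.9 CPM. The cluster led by F13a1 and Bmp2 had the most Hpgds at 132 and 138 CPM and Ptger4 at 105 and 112 CPM, and little Ltb4r1 at 6.65 and 7.34 CPM. Alox5 was also highest there, at 20.6 and 17.1 CPM, with 49.7% and 43.1% of its UMIs in the class. Ptgs1 was at 125 and 97.4 CPM in the cluster led by Slc7a2 and Mmp12 and at 45.4 and 56.2 CPM in the Chil3 cluster.

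The Chil3 cluster held 29.6% and 21.0% of the class and the Slc7a2-Mmp12 cluster 32.4% and 43.4%. With the make-up held over 5 clusters, Alox5ap had a ratio of 0.999 and Ltb4r1, over the 4 clusters with enough UMIs, one of 1.04. Ptger2, also over 4 clusters, turned to 1.19. The clusters themselves did not go 1 way: Alox5ap had a ratio of 0.751 (0.713–0.792) in the Chil3 cluster and 1.22 (1.14–1.30) in the Slc7a2-Mmp12 cluster, and Ptgs1 had 1.24 (1.05–1.45) and 0.780 (0.727–0.836) in the same clusters. In dendritic-like cells the 2 larger clusters also differed. Alox5ap was at 374 and 261 CPM in the cluster led by Ccl17 and Htr7, of 62 and 206 cells, but at 24.3 and 39.1 CPM in the mature dendritic-like cluster led by Ccl22, of 37 and 102 cells. Ptger4 was at 163 and 186 CPM in the first and 231 and 222 CPM in the second, so the orders of these genes over the 2 clusters were opposite. Alox5 stayed at or under 7.29 CPM in both.

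**Figure D5:**
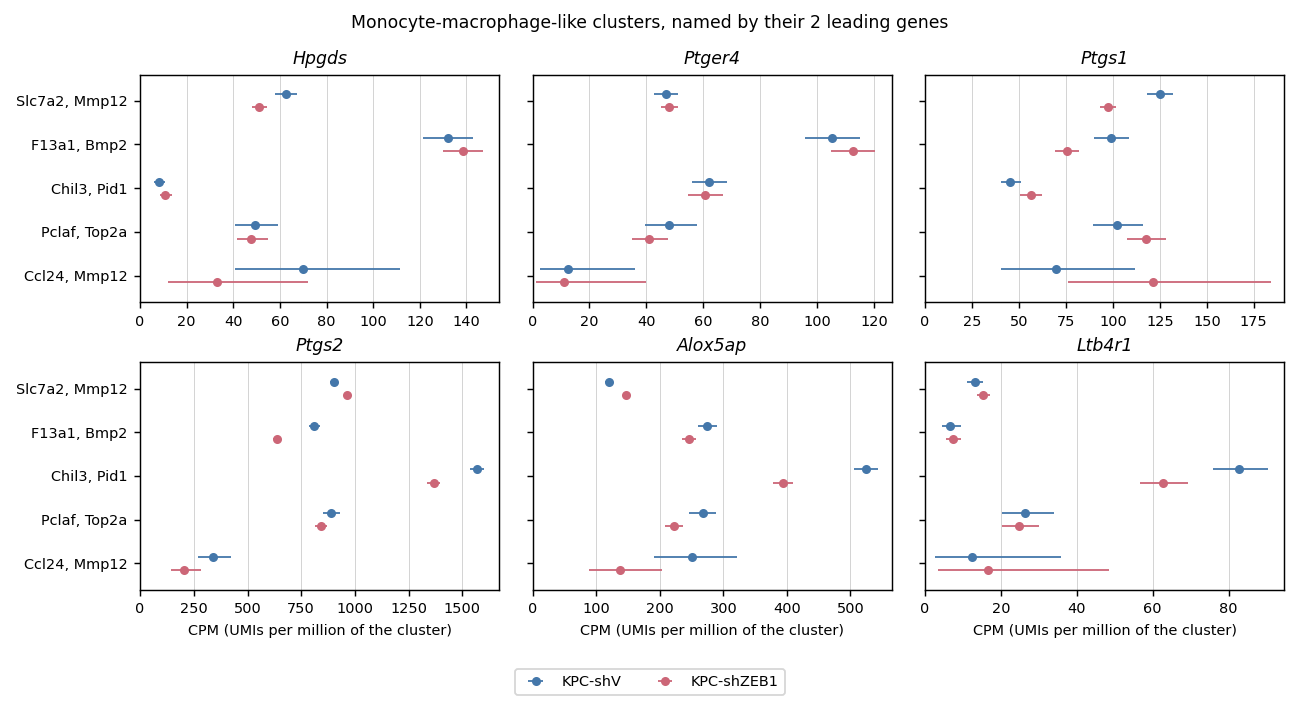
Levels in CPM (horizontal axes) of 6 of the genes in the 5 monocyte-macrophage-like clusters (vertical axis, 2 leading genes each), blue for the KPC-shV-labelled and red for the KPC-shZEB1-labelled library, with 95% counting intervals. Hpgds and Ptger4 peak in the F13a1-Bmp2 cluster and Alox5ap, Ltb4r1 and Ptgs2 in the Chil3-Pid1 cluster.

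In tumour-like cells, taken here as the injected cells with the hairpins, 0 of the 9 genes passed 1.5-fold, against 12.9% of all genes higher and 4.42% lower. Not every cluster of this class scored highest for the tumour list. The Prg4 cluster, of 527 and 245 cells, scored highest for tuft markers, with 1 of them detected. The Zfp804b cluster scored highest for Schwann markers, with 0 detected. Both were named tumour because at least 3 detected markers were required. Ptgs2 was lower in the KPC-shZEB1-labelled library, at 301 (295–307) and 220.3 (215–225) CPM with a ratio of 0.732 (0.710–0.754). Granulocyte RNA would bring 91.6 and 69.8 CPM of it. The cluster led by Prg4, Cntn5 and Grem1 had the most Ptgs2, 393 and 335 CPM, and held 36.7% and 17.7% of tumour-like cells, and with the make-up of 4 clusters held the ratio was 0.827. Ptgs1 was at 43.8 and 41.2 CPM and its ratio of 0.942 (0.875–1.01) was within counting error, with 79.7 and 78.9 CPM in the cluster led by Cntn5 and Spink4. In a cluster of 10 and 231 cells led by Zfp804b and Ralyl it was at 13.0 CPM in the KPC-shZEB1-labelled library. Ptges was at 9.48 and 9.01 CPM, with a ratio of 0.950 (0.811–1.11). In fibroblast-like cells 0 of 8 genes with at least 30 UMIs passed the fold, against 7.02% of all genes higher and 6.39% lower. Ptges (1.01 (0.907–1.13)) and Ptgs2 (1.03 (0.992–1.06)) were within counting error, and Ptgs1 was lower with a ratio of 0.714 (0.629–0.810).

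In dendritic-like cells 1 of 7 genes was past 1.5-fold higher and 1 lower, against 11.3% and 6.15% of all genes. The lower gene was Ltb4r1, at 36.8 and 22.2 CPM with a ratio of 0.603 (0.436–0.843), and the higher was Hpgds with only 3 and 31 UMIs. Alox5ap had a ratio of 0.737 (0.658–0.827), so it was lower in the KPC-shZEB1-labelled library in all 3 myeloid classes, taken whole. In T-like cells 1 of 7 genes, Ptgs1, was past the fold higher, with 20 and 93 UMIs and an interval that held 1, and 0 lower, against 9.53% and 3.38%. Ptger2 had a ratio of 0.753 (0.578–0.987) there, on 84 and 183 UMIs. Its interval held 1 once the 5 cells of each library with the most of its UMIs were left out, at 0.821 (0.614–1.11). In B-like cells 2 of 5 genes, Ptgs1 with 4 and 46 UMIs and Hpgds with 11 and 70, were past the fold higher and 0 lower, against 13.4% and 3.91%. RNA of monocyte-macrophage-like cells would bring 2.49 and 5.48 CPM of the 9.48 and 15.7 CPM of Hpgds measured in B-like cells. The median log2 ratio of the members with at least 30 UMIs is set against the same median over all genes. It was −0.12 against 0.05 in monocyte-macrophage-like, −0.06 against 0.04 in tumour-like and −0.08 against −0.03 in fibroblast-like cells. In dendritic-like cells it was 0.14 against 0.02, in T-like cells 0.0007 against 0.06 and in B-like cells 0.47 against 0.06.

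Mast-like cells were too few to compare, 2 and 18, but 18 cells gave levels above those of granulocyte-like cells for Alox5 and Alox5ap. In the 18 cells of the KPC-shZEB1-labelled library, with 99202 UMIs in all, Ptgs2 was at 2087 CPM, Alox5ap at 776 (613–970.1) CPM, Alox5 at 151 (84.6–249) CPM and Hpgds at 101 (48.3–185) CPM. The mast cell gene Cpa3 was at 3719.7 CPM in the same cells.

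The other genes of the pathway were followed as a list of 46, from phospholipases to receptors. In granulocyte-like cells 10 of 30 with at least 30 UMIs were past 1.5-fold higher and 1 lower, in monocyte-macrophage-like cells 1 and 1 of 33, in tumour-like cells 8 and 2 of 33, in fibroblast-like cells 4 and 3 of 31, in dendritic-like cells 4 and 1 of 21, in T-like cells 5 and 0 of 24 and in B-like cells 5 and 0 of 16. The background shares and the medians over all genes are those given above. The median log2 ratio of the listed genes was 0.37 in granulocyte-like, −0.05 in monocyte-macrophage-like, 0.12 in tumour-like and −0.05 in fibroblast-like cells. In dendritic-like, T-like and B-like cells it was 0.05, 0.12 and 0.13. Ltc4s, which makes leukotriene C4, had the largest granulocyte-like difference among those with at least 100 UMIs, 23.1 and 56.7 CPM and a ratio of 2.46 (2.20–2.75), with 6.15 and 10.2 CPM to come with monocyte-macrophage RNA. It was highest in the Tex14-Siglecf cluster, at 116 and 135 CPM with a ratio of 1.17 (1.01–1.36), against 13.3 and 13.9 CPM in the Lrg1-G0s2 cluster. Tbxas1, the thromboxane synthase, was at 20.6 and 36.7 CPM, and its monocyte-macrophage estimate was 19.9 and 36.6 CPM. This estimate can be too high, as given below for T-like and B-like cells, and the part of that RNA was not tested. Lta4h, which makes leukotriene B4 and so works between Alox5 and Ltb4r1, was at 10.9 and 16.4 CPM with a ratio of 1.51 (1.26–1.81), and Ptges2 and Prxl2b, both low, had ratios of 1.75 (1.23–2.48) and 1.59 (1.16–2.17). The 3 pathway genes with the most CPM in this class were Pla2g7, Ptges3 and Abcc1.

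In fibroblast-like cells Ptgis, the prostacyclin synthase, was lower in the KPC-shZEB1-labelled library, at 243 and 146 CPM with a ratio of 0.602 (0.565–0.641), as was the prostaglandin E2 receptor Ptger3 at 51.5 and 33.6 CPM with 0.652 (0.570–0.745), and Mgst2 with 0.605 (0.418–0.869), while Tbxas1 had 1.55 (1.24–1.94). Ptgis, Ptges3 and Dpep1 were the 3 with the most CPM there. In tumour-like cells Pla2g7, a phospholipase that breaks down platelet-activating factor, was at 88.9 and 172 CPM, with a ratio of 1.93 (1.85–2.02). The Zfp804b-Ralyl cluster held 555 CPM in the KPC-shZEB1-labelled library, while in the Prg4 cluster the ratio was 0.762 (0.704–0.825). Cysltr2 (2.33 (1.66–3.31)), Cysltr1 (1.81 (1.39–2.37)), Prxl2b (1.80 (1.41–2.32)), Ptgr1 (1.61 (1.37–1.91)) and Ltc4s (1.58 (1.32–1.89)) were also higher, and Ptgfr (0.478 (0.360–0.630)) and Akr1c18 (0.544 (0.378–0.775)) lower, all at or under 10.8 CPM. Ptges3, Pla2g7 and Akr1b3 led in tumour-like cells, Pla2g7, Tbxas1 and Ptges3 in monocyte-macrophage-like cells, Ptges3, Tbxas1 and Lta4h in dendritic-like cells, Ptges3, Cysltr2 and Abcc1 in T-like cells and Ptges3, Abcc1 and Akr1b3 in B-like cells. Past 1.5-fold with at least 100 UMIs were also Dpep1 in monocyte-macrophage-like cells (2.01 (1.30–3.19)), Pla2g7 in dendritic-like (1.95 (1.47–2.63)) and B-like cells (1.53 (1.04–2.31)), Tbxas1 in T-like (1.64 (1.14–2.42)) and B-like cells (2.21 (1.21–4.42)) and Pla2g4a in T-like cells, the last with an interval that began at 0.996. For Tbxas1 monocyte-macrophage RNA would bring 24.4 and 30.3 CPM where 13.4 and 22.0 CPM were measured in T-like cells, and 12.0 and 28.1 CPM where 10.3 and 22.8 CPM were measured in B-like cells. For Pla2g7 in B-like cells it would bring 15.2 and 35.9 CPM where 26.7 and 40.8 CPM were measured. These T-like and B-like Tbxas1 estimates were above the levels measured, so they are too high to serve as a background. Ly6c2, among the markers they rest on, was also a leading gene of T sub-clusters, so the T-like estimate can hold RNA of the T-like cells themselves. The part of this RNA in the Tbxas1 ratios was not tested.

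The genes with levels most like those of each member were found by Pearson's r of log2(CPM + 1) over 18 points, 9 classes in 2 libraries, among 10520 genes that reached 20 CPM. These points share libraries and depths, so r is a description. They were Fth1 (0.967), Csrnp1 (0.962) and Prdx5 (0.955) for Ptgs2, Thbs1 (0.925), Ctsb (0.909) and Ifi204 (0.905) for Ptgs1, C3 (0.925), 1200007C13Rik (0.900) and Serpinb2 (0.891) for Ptges and Pf4 (0.926), Ccl8 (0.917) and C1qc (0.897) for Hpgds. For the receptors they were Sfmbt2 (0.863), Gm17173 (0.851) and Ppm1h (0.843) for Ptger2, of which Gm17173 is the gene antisense to it, Tyk2 (0.924), Slamf7 (0.909) and Inpp5b (0.907) for Ptger4, and A630001O12Rik (0.970), Lilrb4a (0.962) and Rab11fip1 (0.961) for Ltb4r1. For Alox5 they were Trem1 (0.979), A630001O12Rik (0.961) and Gm31718 (0.957), and for Alox5ap Gm40645 (0.975), Plbd1 (0.969) and Pira2 (0.964). A630001O12Rik was among the 3 for both Alox5 and Ltb4r1.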

How the data were processed

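The 2 libraries were prepared with 10x Chromium 3′ chemistry. The authors made the deposited UMI counts with Cell Ranger 7.0.1 against mm10 (GRCm38), and the values are raw counts per gene and barcode, filtered to barcodes called as cells. Whether intronic reads were counted was not stated.

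As in the study, barcodes under 500 genes, under 1000 or over 60000 UMIs, or over 15% mitochondrial UMIs were dropped. Scrublet scores above 0.2 removed 315 and 343 cells as doublets. Both libraries were clustered together (scanpy 1.11.5, leidenalg 0.10.2, 3000 variable genes without the 9 members and 46 pathway genes, 30 components, resolution 1) without alignment of the libraries, which gave 35 clusters. A cluster took the class with the highest marker score among lists with at least 3 markers in 10% of its cells. How T, NK and dendritic lists were joined, the 10-cell minimum, the sub-cluster rule and the Scrublet threshold were set after names and scores had been seen. The members and gene lists were chosen with earlier results of these data known. Named beyond the 9 genes were pathway genes (the 3 highest of each class and those past 1.5-fold with at least 100 UMIs), the 3 most alike genes of each member, leading genes of clusters and Zeb1. UMIs were summed by class and library, with exact Poisson intervals for CPM, Clopper-Pearson intervals for shares and conditional exact intervals for ratios. The interval of the ratio was tried only on simulated independent Poisson counts, the model it assumes. Those counts lack the piling of UMIs in single cells, so this does not show how the intervals hold for these data. With 1 library in each group, no tool gave a p-value. A level of 0 was limited by 3 counts. The make-up ratio weights clusters of at least 50 cells in both libraries by their UMIs. Alternatives were tried for doublets, depth, scaling, background RNA, single cells and clustering.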

Additional observations from a re-analysis of the deposited data

Results flagged for a closer look

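In 3 genes the ratio between the libraries was on 1 side of 1 in 1 class and on the other side in another, each by a set minimum fold and with at least 100 UMIs, with both counting intervals clear of 1. The difference between the classes was not tested. Ptgs1 had a ratio of 1.54 in granulocyte-like and 0.714 in fibroblast-like cells, and the first was 1.01 with cluster make-up held. Ptgs2 had a ratio of 1.27 in B-like and 0.732 in tumour-like cells, and in B-like cells granulocyte RNA would bring 80.5 and 72.9 CPM of the 99.1 and 126 CPM measured. Hpgds had a ratio of 1.44 in tumour-like and 0.681 in granulocyte-like cells, at levels of 3.23 and 4.66 CPM and of 11.6 and 7.89 CPM, and the second was 1.21 with cluster make-up held. Monocyte-macrophage RNA would bring 2.42 and 4.39 CPM of Hpgds in tumour-like and 4.13 and 7.15 CPM in granulocyte-like cells.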

How the results depend on the processing

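Each gene's ratio in the class with the most of it was recomputed under 10 alternatives set in advance and up to 3 chosen after the data were seen, and the counts of members past the fold under 3. Of 126 recomputed values, 108 stayed within the counting interval or within 1.5 times the count, 17 moved and 1 reversed. The ratios of Ptges, Hpgds, Ptger2 and Ptger4 in their own classes stayed within it under every alternative. Whether the interval held 1 was less stable. For Ptger2 it did with no doublets removed, 0.781 (0.607–1.01), and without the 5 cells with the most UMIs, 0.821 (0.614–1.11). For Ptger4 it no longer did without those 5 cells, 1.19 (1.03–1.39). The reversal was Ptgs2 in granulocyte-like cells, 0.968 with cluster make-up held, and its ratio was 1.11 as a mean over cells and 1.02 relative to the median ratio of the class, which was 1.06. With the make-up held, Alox5 was 1.09, Alox5ap 0.738 and Ltb4r1 0.879. Without the Tex14-Siglecf cluster they were 1.28, 0.862 and 1.14, and without the Trem1-Trem3 cluster of 5 and 269 cells they kept within their intervals. Alox5ap was 0.727 relative to the class median, and Ptgs1 in monocyte-macrophage-like cells 0.843 after subtraction of its lowest class level. At 2-fold the count of members was 0 in granulocyte-like (7.48% and 0.939%) and T-like (3.28% and 0.734%) and 1 in dendritic-like (4.41% and 1.28%) and B-like cells (5.41% and 0.734%), with the percentages of all genes higher and lower in parentheses. At a floor of 100 UMIs it was 1 in dendritic-like (5.74% and 3.42%) and 0 in B-like (6.98% and 1.56%), and at 10 UMIs 3 in T-like cells (14.1% and 5.71%). No paired analysis was possible because each group held 1 library. A gene under about 30 UMIs in a class could not be compared at this depth, and counting error leaves out the difference between mice.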

Other observations

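Ptgs1 and Alox5 were counted together in some single cells of the Tex14-Siglecf cluster. Among cells with 2000 to 5000 UMIs, both had a UMI in 45 of 550 cells against 37.3 under independence in the KPC-shV-labelled library and in 74 of 1174 cells against 69.9 in the other. For Alox5ap and Ltb4r1 in the same cluster the numbers were 76 of 550 cells against 62.2 and 116 of 1174 cells against 90.8. Depth within that range still varied, so these are given as counts only.

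A granulocyte-like cluster led by Trem1 and Trem3 was found almost only in the KPC-shZEB1-labelled library, with 5 and 269 cells. In its 269 cells Ptgs1 was at 69.6 CPM, Alox5 at 50.5 CPM, Ltb4r1 at 139 CPM and Alox5ap at 311 CPM. Without it the granulocyte-like ratios of Ptgs1 and Alox5 were 1.52 and 1.51.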
